A study of Mus musculus with 8 samples.

Results

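The HOX cluster genes of the mouse were described in proliferating C2C12 cells in which subunits of the SWI/SNF chromatin remodellers had been targeted with shRNA. They were taken as every row of the deposited count table whose Entrez gene ID carries a symbol made of Hox, the cluster letter a, b, c or d and a paralogue number, which gave 39 of 24573 rows. These were 11 Hoxa genes on chromosome 6 (52155367 to 52260880, minus strand), 10 Hoxb genes on chromosome 11 (96194316 to 96368254, plus strand), 9 Hoxc genes on chromosome 15 (102921131 to 103036856, plus strand) and 9 Hoxd genes on chromosome 2 (74668225 to 74765142, plus strand), all on GRCm38. C2C12 is a myoblast line that came from the thigh muscle of an adult mouse.

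RNA sequencing covered 4 groups of 2 libraries. The cells carried an shRNA against Brd9, a subunit of non-canonical BAF, against Baf250A, the canonical BAF subunit encoded by Arid1a, against Baf180, the PBAF subunit encoded by Pbrm1, or a scrambled control sequence. Every group, the scramble control included, had been infected with lentivirus in the presence of polybrene and selected and kept in puromycin. The titles give a single shRNA code per target, so an effect of the target and an effect of that hairpin cannot be told apart, and since no label says whether a group's 2 libraries are separate cultures, the p-values speak only to the spread between libraries. RNA was taken from whole cultures, where fewer cells that use a gene and less RNA per cell cannot be told apart.

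HOX genes encode homeodomain transcription factors that give cells their position along the body axis and the limbs. Within a cluster the genes lie in the order in which they are used: those at the 3′ end act early and anteriorly, those at the 5′ end late and posteriorly. Polycomb complexes keep unused HOX genes silent and trithorax (MLL) complexes keep used ones active. In Drosophila the SWI/SNF ATPase brahma and the Baf250A homologue osa are themselves trithorax group genes, found through their effects on homeotic genes.

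The libraries held 17763076 to 20400863 estimated counts. Scramble replicate 2 stood apart in the number of genes with a count, 16402 against 14195 to 14768 in the other 7 libraries. Each target was lowest in its own knockdown: Brd9 was at 157 and 135 counts under its own shRNA, against 717 and 637 in scramble. Arid1a was at 1335 and 1243 counts under the Baf250A shRNA, against 2834 and 2720 in scramble. Pbrm1 was at 65 and 86 counts under the Baf180 shRNA, against 876 and 969 in scramble. The 7 myoblast markers Myod1, Myf5, Pax7, Des, Cdh15, Chrna1 and Myog had counts in every library, though their level moved with the shRNA. Their summed level was 1303 and 1702 CPM in Brd9, 930.8 and 722.2 CPM in Baf250A, 3095 and 2150 CPM in Baf180 and 1624 and 1604 CPM in scramble libraries, CPM being edgeR's library-scaled counts (TMM). Des made up most of this sum in every library, and single markers moved otherwise. Pax7 had 240 and 195 counts in Brd9 against 57 and 48 in scramble libraries. Myf5 had 123 and 197 counts in Baf180 against 396 and 484 in scramble libraries. Markers of other cell types also moved: 5 fibroblast markers summed to 303.2 and 296.1 CPM in Brd9, 283.2 and 261.1 in Baf250A, 350.7 and 358.9 in Baf180 and 148.6 and 144.0 in scramble libraries. Lum was at 0 and Thy1 at 2 counts or fewer in every library, and Col1a1 made up most of these sums. The 6 neural markers summed to 316.7 and 346.6 CPM in Brd9, 62.56 and 62.07 in Baf250A, 215.8 and 189.9 in Baf180 and 715.4 and 655.1 in scramble libraries. The 5 adipocyte markers summed to 41.35 and 39.65 CPM in Brd9, 37.42 and 35.24 in Baf250A, 55.23 and 55.42 in Baf180 and 19.54 and 15.02 in scramble libraries. Among them Cebpa was called higher in Brd9 (log2 fold change 2.07), Baf250A (1.79) and Baf180 (2.68), Pparg was called in none of the 3, Plin1 was at 0 in every library and Adipoq reached 1 count. The 4 endothelial markers summed to at most 0.4364 CPM and the 4 haematopoietic markers to 1.703 to 3.593 CPM. Of the tested markers in Brd9, Baf250A and Baf180, the myoblast list of 7 had 2, 0 and 5 higher and 0, 4 and 1 lower, and the fibroblast list of 3 had 2, 2 and 3 higher. The neural list of 5 had 2, 5 and 3 lower in the same order. Of all 12420 tested genes, 6.45%, 15.5% and 17.2% were called higher and 3.57%, 14.0% and 17.0% lower in that order. Among the 4 myoblast markers lower in Baf250A were Chrna1 (log2 fold change -4.24), Cdh15 (-2.46) and Pax7 (-2.40). The part of these shifts in the HOX values below was not tested.

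HOX expression in these cells came from the Hoxa and Hoxc clusters. Of the 39 genes, 19 passed the low-count filter and could be tested: 10 of 11 Hoxa genes, all but Hoxa2, and 9 of 9 Hoxc genes, while none of the Hoxb and Hoxd genes passed. When levels were set per kilobase of gene length, the Hoxc genes held 67.89 to 80.95% of all HOX CPM per kilobase in a library and the Hoxa genes 18.88 to 31.98%. The Hoxb genes held 0.13 to 0.33% and the Hoxd genes 0 to 0.18%.

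In both expressed clusters the highest levels lay in the 5′ part, and not every gene there was high. Hoxc10 was the most abundant, with 29.1 to 53.2 CPM per kilobase over the 8 libraries and a mean of 42.0, and alone held 24.4 to 34.9% of the HOX total. Hoxc11 came next with a mean of 27.2 CPM per kilobase (18.1 to 33.7), a range that overlaps that of Hoxc10, though within each library Hoxc10 was above Hoxc11. Hoxa10 (10.6), Hoxc9 (10.1), Hoxc13 (9.99), Hoxa11 (9.27) and Hoxc6 (7.47 mean CPM per kilobase) followed, and neighbours in this order also had overlapping ranges. Hoxa9 averaged 5.99, Hoxa7 4.01 and Hoxc4 3.77 CPM per kilobase.

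The other tested genes were low. Hoxc12 averaged 1.58 and Hoxa5 1.21 CPM per kilobase, and Hoxc5, Hoxa3, Hoxa4, Hoxa6, Hoxa13 and Hoxc8 lay between 0.84 and 0.33. The order along the chromosome was therefore not a smooth slope: Hoxc12, between the abundant Hoxc11 and Hoxc13, was 1 of the low members, and so was Hoxc8 between Hoxc6 and Hoxc9. In the Hoxa cluster, Hoxa7, Hoxa9, Hoxa10 and Hoxa11 were well above Hoxa3, Hoxa4, Hoxa5 and Hoxa6, and Hoxa13 was the lowest of the tested genes.

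**Figure D1:**
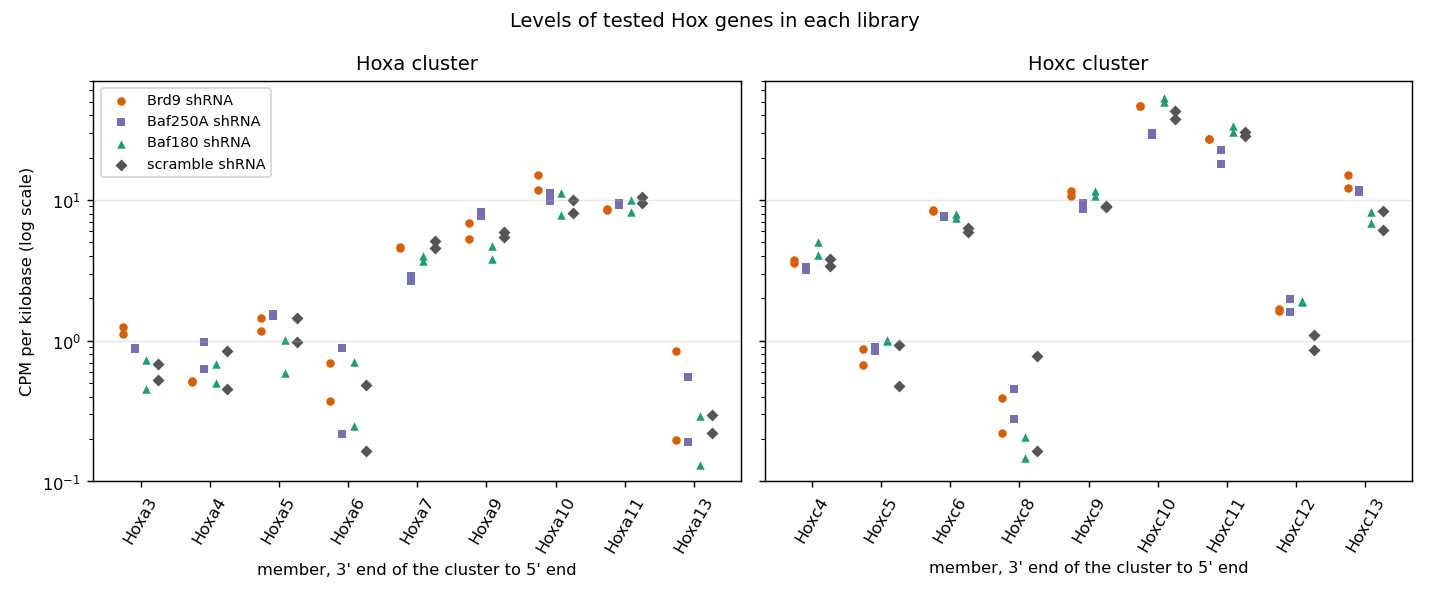
Level of 18 tested HOX genes in each library, in CPM per kilobase of gene length on a log scale, with genes in order from the 3′ to the 5′ end of the cluster. Each point is 1 library, in the order Brd9, Baf250A, Baf180 and scramble; Hoxc10 lies highest in every group, at 29.1 to 53.2 CPM per kilobase, and Hoxc12 and Hoxa13 lie well below their neighbours.

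The untested genes were counted at or near 0. Hoxa2, the only untested Hoxa gene, had 6 and 5 counts in Brd9, 7 and 14 in Baf250A, 5 and 10 in Baf180 and 6 and 8 in scramble libraries. Summed over the 10 Hoxb genes, counts were 26 and 13 in Brd9, 7 and 5 in Baf250A, 7 and 9 in Baf180 and 12 and 8 in scramble libraries. Most of the Brd9 sum was Hoxb4, with 18 and 8 counts in Brd9, 3 and 2 in Baf250A, 1 and 3 in Baf180 and 1 and 1 in scramble libraries. The Brd9 libraries were thus the highest for Hoxb4, though at under 1 CPM (0.873 and 0.419), and Hoxb3, whose annotated span overlaps Hoxb4 on the same strand, had 5 and 2 counts there and 4 and 0 in scramble. Without the low-count filter, Hoxb4 was called higher in Brd9 against scramble (log2 fold change 3.37) and against Baf180 (2.46), from these few counts. Hoxb1 was at 0 in all libraries, and Hoxb2, Hoxb5, Hoxb6, Hoxb7, Hoxb8, Hoxb9 and Hoxb13 had at most 4 counts in any library.

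The Hoxd cluster was near 0 throughout. Its 9 genes summed to 0 and 1 counts in Brd9, 0 and 0 in Baf250A, 0 and 0 in Baf180 and 0 and 10 in scramble libraries. The 10 counts of scramble replicate 2 fell on Hoxd1 (1), Hoxd3 (2), Hoxd10 (3), Hoxd11 (3) and Hoxd13 (1), and the single Brd9 count on Hoxd9, while Hoxd4, Hoxd8 and Hoxd12 were at 0 in all libraries. Evx1 and Evx2, the homeobox genes next to the 5′ ends of the Hoxa and Hoxd clusters, likewise had counts only in scramble replicate 2, 2 and 3, and this is the library with the most genes detected. A library with no count allows up to 3, so a difference of a few counts between groups was not detectable at this depth.

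Promoter windows of 300 bases, 250 before to 50 after the start, were available from RefSeq (GRCm38.p6) for 22 of the 39 members. Those printed are Hoxa7 and Hoxa9, both expressed and both called in a comparison below, and Hoxd9 of the unexpressed Hoxd cluster. They show that a promoter near 0 in RNA can hold more CG dinucleotides than those of these expressed members. The examples are not typical. Hoxa9 holds the fewest of the windows of tested genes, and Hoxa7 lies below their median of 17.5. Hoxd9 lies above the median of 13.5 of the windows of untested genes. Capitals mark the CG dinucleotides, 9 in Hoxa7 (chr6:52218524-52218823, minus strand), 4 in Hoxa9 (chr6:52227321-52227620, minus strand) and 20 in Hoxd9 (chr2:74697513-74697812, plus strand), each written 5′ to 3′ on the strand of the gene.
Hoxa7: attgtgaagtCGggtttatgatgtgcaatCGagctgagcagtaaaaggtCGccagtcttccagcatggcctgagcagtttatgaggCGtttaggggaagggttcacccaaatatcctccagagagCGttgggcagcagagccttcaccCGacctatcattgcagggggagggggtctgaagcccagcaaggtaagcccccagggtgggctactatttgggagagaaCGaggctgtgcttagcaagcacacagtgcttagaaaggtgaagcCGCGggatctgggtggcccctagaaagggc
Hoxa9: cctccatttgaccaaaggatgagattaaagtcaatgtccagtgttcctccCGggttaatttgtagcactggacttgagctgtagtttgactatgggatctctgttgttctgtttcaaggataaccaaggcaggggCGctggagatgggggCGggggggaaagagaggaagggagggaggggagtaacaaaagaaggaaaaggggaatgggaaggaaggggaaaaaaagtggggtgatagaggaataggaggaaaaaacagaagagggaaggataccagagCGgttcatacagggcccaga
Hoxd9: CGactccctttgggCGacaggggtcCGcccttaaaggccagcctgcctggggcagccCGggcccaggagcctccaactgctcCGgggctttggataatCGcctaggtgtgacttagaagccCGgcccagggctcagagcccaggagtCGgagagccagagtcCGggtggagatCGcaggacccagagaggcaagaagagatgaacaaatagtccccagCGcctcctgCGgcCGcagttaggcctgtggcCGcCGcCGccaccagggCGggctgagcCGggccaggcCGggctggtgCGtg

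Across the 24 windows of the 22 members, CG content did not follow expression in a simple way. The 10 windows of tested genes held 4 to 45 CG dinucleotides with a median of 17.5, the 14 windows of untested genes 4 to 37 with a median of 13.5, and all 32851 windows of the table a median of 7. The letters TGATTNAT, the motif of PBX with a HOX partner, searched on both strands, were in 0 of the 10 and 2 of the 14 windows and in 3.22% of all windows. TATAAA was in 1 and 3 of them and in 13.62% of all windows, and CCAAT in 5 and 10 and in 37.41% of all. None of the 3 motifs contains another, and a match describes letters only. The members without a window include Hoxa4, Hoxb2, Hoxb3, Hoxb5, Hoxb6, Hoxb7, Hoxb9, Hoxb13, Hoxc5, Hoxc6, Hoxc8, Hoxc9, Hoxc10, Hoxc11, Hoxc12 and Hoxc13.

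Each knockdown was then compared with scramble, with the same 2 scramble libraries in all 3 comparisons. In Brd9 knockdown the member that changed was Hoxc13, the gene at the 5′ end of its cluster, known for its role in hair and nail keratins. Hoxc13 (ID 15422, chr15:102921131-102928814) had 36.4 and 29.7 CPM in Brd9 libraries (751 and 568 counts), against 20.2 and 15.0 CPM in scramble libraries (360 and 259 counts). The groups did not overlap, as was so for 10 of the 19 tested members. The share of all genes without overlap was not counted in any comparison. Hoxc13 rose 1.88-fold in Brd9 knockdown, a log2 fold change of 0.91 ± 0.19 (SE) with an adjusted p of 0.021 in edgeR's quasi-likelihood test. This was 1 of 19 tested members called higher and 0 lower, where 6.45% of all 12420 tested genes were called higher and 3.57% lower. The call ended without scramble replicate 1 (1.14), scramble replicate 2 (0.71) or Brd9 replicate 1 (0.78), and the direction stayed. Most fits with 1 library left out, here and below, also called fewer of all genes.

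A further 3 members lay above scramble at an unadjusted p below 0.05 without passing the adjusted threshold. With Hoxc13 that makes 4, all of them higher. In no comparison was the share of all genes at this unadjusted threshold counted. Such counts are therefore not read as a trait of the members. Hoxa3, a gene of neck and hindbrain patterning, had 2.86 and 3.19 CPM in Brd9 and 1.35 and 1.73 CPM in scramble libraries, a log2 fold change of 0.97 ± 0.31 with an adjusted p of 0.076. Hoxa10, a gene of limb and uterus patterning, had 34.1 and 26.6 CPM in Brd9 and 22.5 and 18.4 CPM in scramble libraries (0.57 ± 0.22, adjusted p = 0.12). Hoxc6, a gene of thoracic identity, had 13.6 and 13.3 CPM in Brd9 and 10.1 and 9.36 CPM in scramble libraries (0.47 ± 0.17, adjusted p = 0.10). The Brd9 libraries were above both scramble libraries for these genes. Reads of Hoxa3 are uncertain, because its longest annotated transcript spans Hoxa4, Hoxa5 and Hoxa6 on the same strand and the antisense genes Hoxaas2 and Hoxaas3.

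Of the other members in Brd9 libraries, none stood out by cluster. The median log2 fold change was 0.10 over the 10 Hoxa genes, with 6 positive, and 0.21 over the 9 Hoxc genes, with 7 positive. Over all 19 it was 0.14, where the median of all 12420 genes was 0.04. The median over the 19 was -0.03 without Brd9 replicate 1, 0.30 without Brd9 replicate 2 and 0.32 without scramble replicate 2. Hoxc10, the most abundant member, had 89.3 and 89.6 CPM in Brd9 and 82.1 and 72.2 CPM in scramble libraries, and Hoxc11 had 24.7 and 24.7 CPM in Brd9 and 26.1 and 27.7 CPM in scramble libraries. Their log2 fold changes of 0.21 ± 0.13 and -0.12 ± 0.16 did not pass the test.

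In Baf250A knockdown 4 members changed, in both directions and in both clusters. Hoxa7, a gene of thoracic identity, had 5.63 and 5.22 CPM in Baf250A libraries (112 and 101 counts), against 8.93 and 9.94 CPM in scramble libraries (159 and 172 counts). Hoxa7 (ID 15404, chr6:52215623-52218573) was lower 1.74-fold, a log2 fold change of -0.80 ± 0.19 with an adjusted p of 0.015 in edgeR's test, and it was the only Hoxa gene called. Both Baf250A libraries were also below the 2 Brd9 and the 2 Baf180 libraries, so the Baf250A group was the lowest of the 4 for this gene.

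The other 3 called members were posterior Hoxc genes. Hoxc10 (ID 209448, chr15:102966796-102971898), a gene of lumbar and hindlimb identity, had 57.5 and 55.8 CPM in Baf250A and 82.1 and 72.2 CPM in scramble libraries (1143 and 1080 against 1462 and 1250 counts), and fell with a log2 fold change of -0.45 ± 0.13 (adjusted p = 0.028). Hoxc11 (ID 109663, chr15:102954526-102956701), its neighbour, had 20.7 and 16.6 CPM in Baf250A and 26.1 and 27.7 CPM in scramble libraries, and fell with -0.53 ± 0.16 (adjusted p = 0.037). Hoxc13 had 28.8 and 27.5 CPM in Baf250A and 20.2 and 15.0 CPM in scramble libraries, and rose with 0.68 ± 0.19 (adjusted p = 0.029). So Hoxc10 and Hoxc11 fell and Hoxc13, at the 5′ end, rose in the same libraries. All 4 calls ended when scramble replicate 1, scramble replicate 2 or Baf250A replicate 2 was left out, and those of Hoxc10 and Hoxc13 also without Baf250A replicate 1, with values of -0.87 to -0.69 for Hoxa7, -0.54 to -0.35 for Hoxc10, -0.63 to -0.32 for Hoxc11 and 0.48 to 0.91 for Hoxc13.

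That made 1 of 19 members higher and 3 lower in Baf250A knockdown, where 15.5% of all tested genes were called higher and 14.0% lower. The median log2 fold change was 0.40 over the 10 Hoxa genes, with 8 positive, 0.01 over the 9 Hoxc genes, with 5 positive, and 0.32 over all 19, where the median of all genes was -0.02. Without Baf250A replicate 2 the median over the 19 was 0.14. Hoxa9, a posterior gene also known from leukaemia, had 23.9 and 25.8 CPM in Baf250A and 18.4 and 17.1 CPM in scramble libraries, with a log2 fold change of 0.48 ± 0.19 and an adjusted p of 0.077. Hoxc12 had 1.66 and 1.34 CPM in Baf250A and 0.730 and 0.925 CPM in scramble libraries (0.86 ± 0.33, adjusted p = 0.077). Both lay above scramble in both libraries without passing the test.

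Baf180 knockdown gave 0 of 19 members called in edgeR's test, where 17.2% of all tested genes were called higher and 17.0% lower, and DESeq2 also called 0. At an unadjusted p below 0.05 there were 2. Hoxc10 had 95.4 and 101.8 CPM in Baf180 and 82.1 and 72.2 CPM in scramble libraries, a log2 fold change of 0.35 ± 0.13 with an adjusted p of 0.055. Hoxc12 had 1.62 and 1.58 CPM in Baf180 and 0.730 and 0.925 CPM in scramble libraries (0.95 ± 0.33, adjusted p = 0.052). The Baf180 libraries did not overlap the scramble libraries for either gene, as was so for 9 of the 19 tested members. The precision left room for changes in the rest: the 95% intervals of the 19 log2 fold changes reached from -3.01 (Hoxc8) to 2.57 (Hoxa6), and for the better counted Hoxc13 ran from -0.38 to 0.50.

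By cluster, the Baf180 values lay on different sides. In Hoxa 3 of 10 log2 fold changes were positive, with a median of -0.14, and in Hoxc 8 of 9 were positive, with a median of 0.33, while the median of all genes was -0.02. With GC and length offsets, described further on, 2 of 10 Hoxa and 5 of 9 Hoxc values were positive. Over all 19 members the median was 0.08 with TMM scaling. It was 0.27 without Baf180 replicate 1, -0.07 without Baf180 replicate 2, and 0.12 and 0.10 without scramble replicate 1 and 2. Hoxa9 had 12.0 and 14.7 CPM in Baf180 and 18.4 and 17.1 CPM in scramble libraries, a log2 fold change of -0.41 ± 0.19 with an adjusted p of 0.12. Hoxa7 had 7.19 and 7.75 CPM in Baf180 and 8.93 and 9.94 CPM in scramble libraries (-0.34 ± 0.19, adjusted p = 0.18). Both were below scramble in both libraries and did not pass the test.

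**Figure D2:**
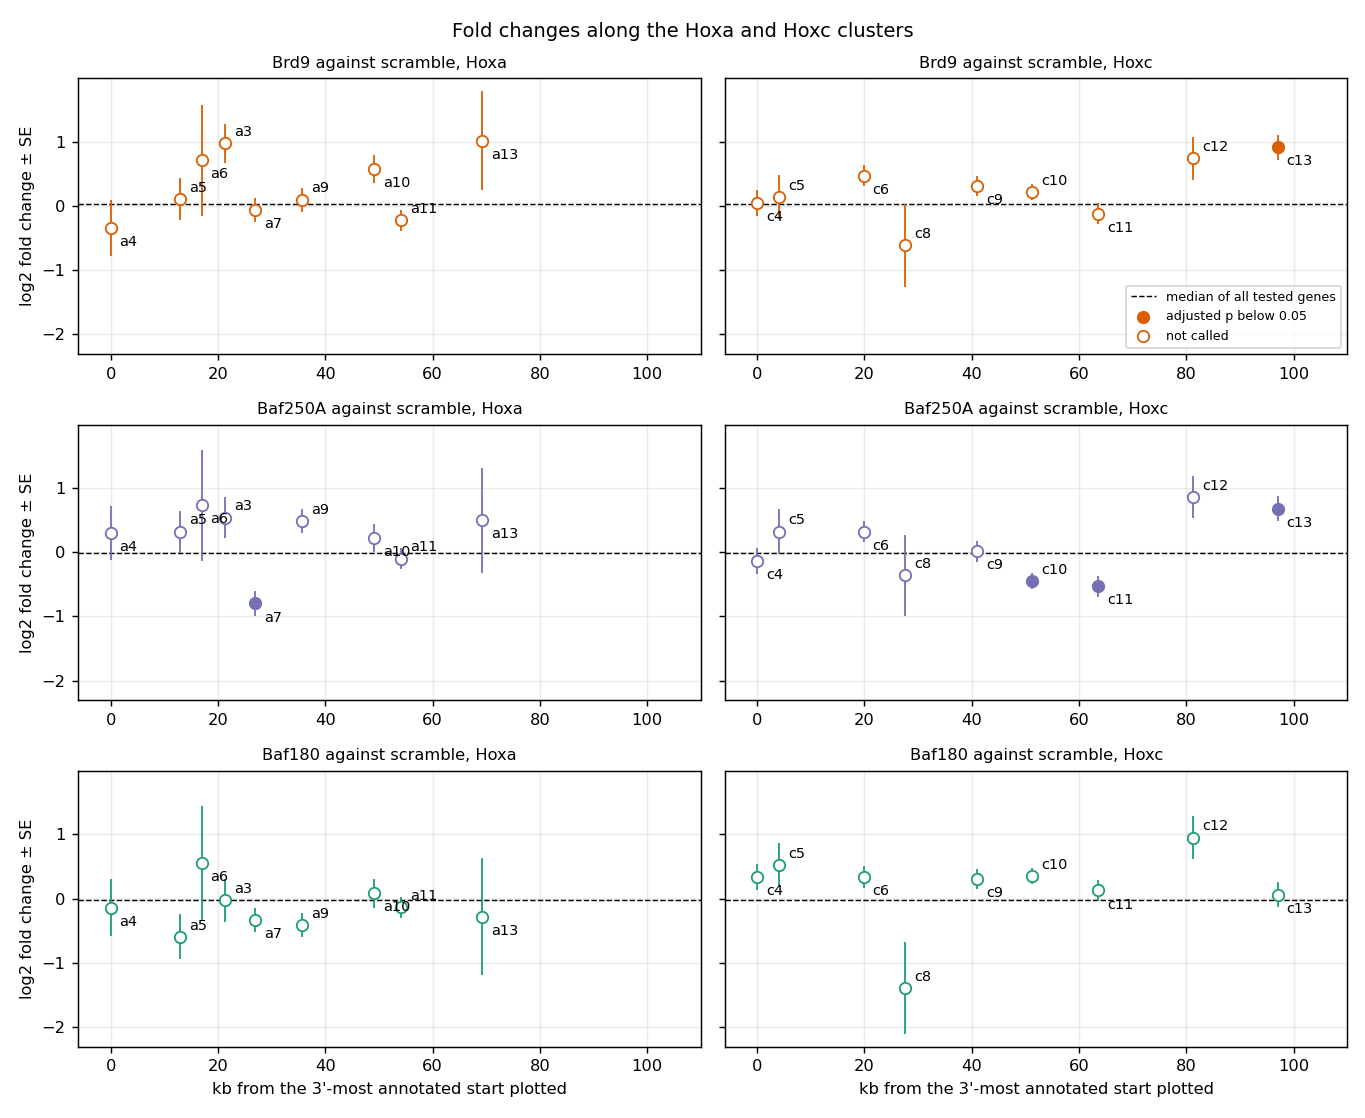
Log2 fold change against scramble (± SE) of 18 tested Hoxa and Hoxc genes, 1 row per knockdown, by distance in kb of the annotated start from the 3′-most start plotted. Hoxa3 lies at the start of its longest transcript. Hoxc4, the origin of the Hoxc distances, lies at the start of its annotated span (103018097), while its promoter window starts at 103034145. Filled points mark an adjusted p below 0.05 and a dashed line the median of all tested genes. The filled points are Hoxc13 in Brd9 (0.91) and Baf250A (0.68) and Hoxa7, Hoxc10 and Hoxc11 in Baf250A (-0.80, -0.45 and -0.53).

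The knockdowns were also set against each other in the same fit of 8 libraries, where the scramble libraries enter the estimate of the spread. Between Baf250A and Baf180, 5 members differed: Hoxa9, Hoxa5 and Hoxc13 were higher in Baf250A knockdown and Hoxc10 and Hoxc11 lower, which is 3 higher and 2 lower of 19 where 30.8% and 31.7% of all tested genes were called. Hoxa9 (ID 15405, chr6:52223097-52227370) had 475 and 500 counts in Baf250A against 207 and 269 in Baf180 libraries, a log2 fold change of 0.90 ± 0.19 (adjusted p = 0.0030). Hoxc10 averaged 56.6 ± 1.21 CPM in Baf250A and 98.6 ± 4.53 CPM in Baf180 libraries (SD, n = 2 each), a log2 fold change of -0.80 ± 0.13 (adjusted p = 0.000705 in edgeR). These 2 calls were kept whichever library of the 4 was left out.

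Hoxc11 averaged 18.6 ± 2.93 CPM in Baf250A and 29.4 ± 2.05 CPM in Baf180 libraries, with a log2 fold change of -0.66 ± 0.16 (adjusted p = 0.0066 in edgeR). Hoxc13 averaged 28.2 ± 0.92 CPM in Baf250A and 18.4 ± 2.23 CPM in Baf180 libraries (0.61 ± 0.19, adjusted p = 0.020). Hoxa5, which acts in lung and cervical patterning, had 2.82 and 2.89 CPM in Baf250A and 1.10 and 1.91 CPM in Baf180 libraries (0.91 ± 0.34, adjusted p = 0.041). The libraries of the 2 knockdowns did not overlap for any of these genes, as was so for 12 of the 19 tested members. The genes were called from these same libraries, so this adds no support. The Hoxc11 call ended without Baf250A replicate 2 (-0.47), the Hoxc13 call without Baf180 replicate 1 (0.50), and the Hoxa5 call without Baf250A replicate 1 (0.98), Baf250A replicate 2 (0.93) or Baf180 replicate 1 (0.58).

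Between Brd9 and Baf250A, 2 of 19 members were higher in Brd9 knockdown and 1 lower, where 15.0% and 10.0% of all tested genes were called higher and lower. In a fit of these 4 libraries alone 2 were higher and 0 lower, and with DESeq2 likewise. Hoxc10 averaged 89.5 ± 0.22 CPM in Brd9 and 56.6 ± 1.21 CPM in Baf250A libraries (SD, n = 2 each), a log2 fold change of 0.66 ± 0.13 (adjusted p = 0.0059 in edgeR). Hoxa7 had 8.97 and 9.06 CPM in Brd9 and 5.63 and 5.22 CPM in Baf250A libraries (0.73 ± 0.19, adjusted p = 0.022). The call of Hoxa7 ended whichever library of the 4 was left out (0.65 to 0.75), and that of Hoxc10 without Baf250A replicate 2 (0.61).

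Between Brd9 and Baf180, 3 of 19 members were higher in Brd9 knockdown and 0 lower, where 26.3% and 23.3% of all tested genes were called. Hoxc13 averaged 33.1 ± 4.71 CPM in Brd9 and 18.4 ± 2.23 CPM in Baf180 libraries (SD, n = 2 each), a log2 fold change of 0.85 ± 0.19 (adjusted p = 0.0093 in edgeR). Hoxa3 had 2.86 and 3.19 CPM in Brd9 and 1.16 and 1.86 CPM in Baf180 libraries (1.00 ± 0.31, adjusted p = 0.026). Hoxa9 had 21.5 and 16.5 CPM in Brd9 and 12.0 and 14.7 CPM in Baf180 libraries (0.51 ± 0.19, adjusted p = 0.049). These 3 were the members at an unadjusted p below 0.05 in this comparison, and DESeq2 called 1 of the 19 there, Hoxc13. The Hoxa9 call ended in a fit of the 4 libraries alone (adjusted p = 0.10), with RLE scaling (0.055) and with no filter (0.056). All 3 calls ended without Brd9 replicate 1 or Baf180 replicate 1, and that of Hoxa3 also without Brd9 replicate 2, while the directions stayed.

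**Figure D3:**
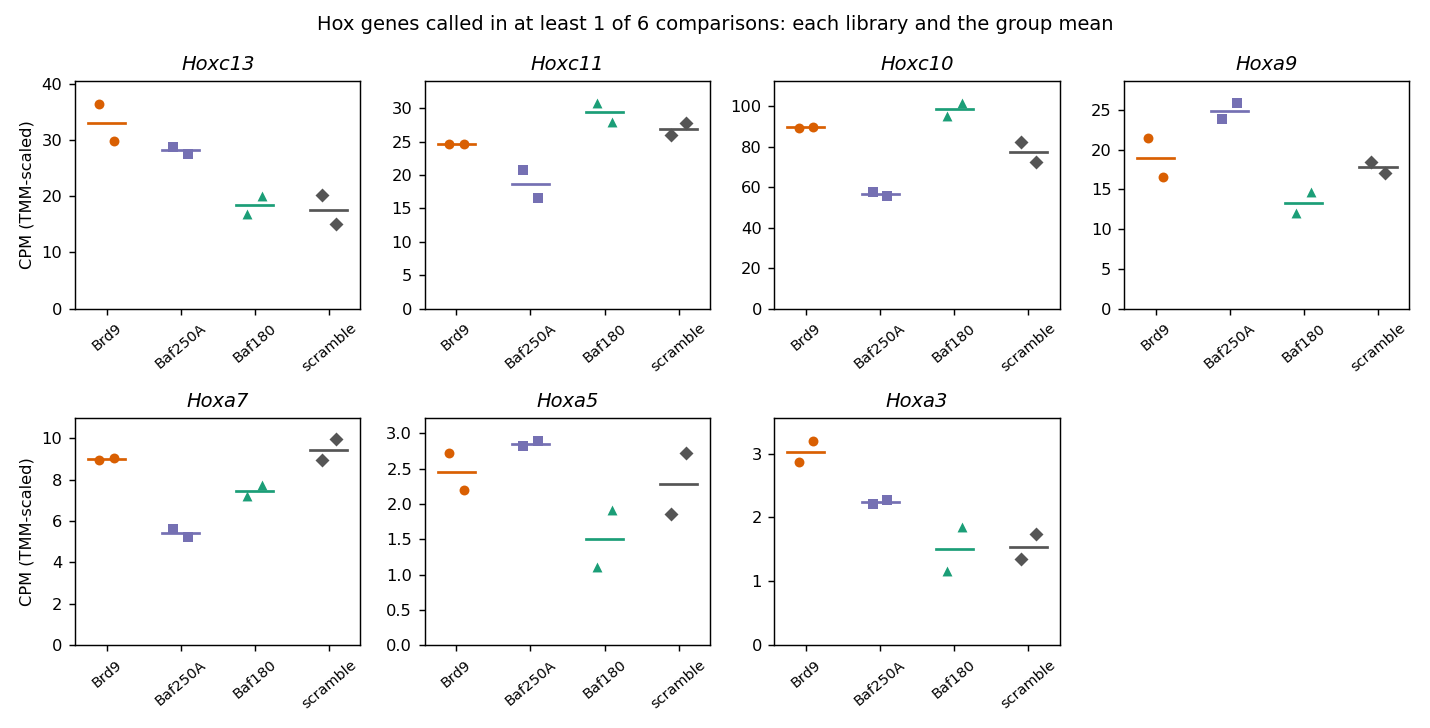
CPM of 7 HOX genes called in at least 1 of the 6 comparisons, each point a library and each line the mean of its group, with groups from left to right Brd9, Baf250A, Baf180 and scramble and each axis starting at 0. Hoxc13 is highest in Brd9 (mean 33.1 CPM) and Baf250A (28.2), while Hoxc10, Hoxc11 and Hoxa7 are lowest in Baf250A (56.6, 18.6 and 5.42).

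The libraries differ in how counts depend on the GC content of transcripts, and HOX transcripts are somewhat richer in GC (median 53.4% over the tested members, 50.5% over all tested genes). The trend fitted per library on GC content and gene length had a median over the tested members of 0.34 and 0.20 on the log2 scale under the Baf180 shRNA, -0.17 and -0.30 under Baf250A, -0.09 and 0.02 under Brd9 and 0.02 and 0.00 under scramble. When these trends were passed to edgeR as offsets, 3 of the 4 calls in Baf250A against scramble stayed. Hoxc10 fell with a log2 fold change of -0.31 ± 0.09 (adjusted p = 0.023), and Hoxc13 rose with 0.92 ± 0.19 (adjusted p = 0.0040). Hoxa7 also stayed lower (-0.62, adjusted p = 0.011), and Hoxc11 was no longer called (-0.20, adjusted p = 0.25). Hoxa9 (0.54), Hoxc6 (0.54) and Hoxc12 (1.30) were called higher in Baf250A with the offsets and not with TMM scaling of all 8 libraries, though Hoxa9 was also called in a fit of the 4 libraries alone (0.49, adjusted p = 0.040). The offsets gave 4 of 19 members higher and 2 lower where 17.7% and 17.4% of all genes were called.

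In Brd9 knockdown Hoxc13 kept its value with the offsets (0.94 ± 0.19, adjusted p = 0.0047), and Hoxa3 (0.99) and Hoxc6 (0.54) were called higher too. The counts were 3 of 19 higher and 0 lower, where 11.8% and 18.3% of all genes were called. In Baf180 knockdown the offsets gave 1 member higher, Hoxc10 (0.26, adjusted p = 0.039), and 3 lower, Hoxa7 (-0.51, 0.022), Hoxa9 (-0.37, 0.048) and Hoxa11 (-0.41, 0.042), where 17.8% and 20.1% of all genes were called. The median over the Hoxc genes in Baf180 moved to 0.13 with the offsets, and that over the Hoxa genes to -0.39.

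Direct comparisons moved further. In Baf250A against Baf180 the offsets gave 9 of 19 members higher and 1 lower, where 28.5% and 26.2% of all genes were called: Hoxa3, Hoxa4, Hoxa5, Hoxa9, Hoxa10, Hoxa11, Hoxc6, Hoxc12 and Hoxc13 higher and Hoxc10 lower (-0.57 ± 0.09). Hoxc11 turned to 0.01 there, from a call in the other direction, and Hoxc6 and Hoxc12 turned to 0.41 and 0.89. In Brd9 against Baf180 there were 7 higher and 0 lower, where 14.0% and 18.9% of all genes were called. With a block for replicate number added there, 3 were higher and 0 lower, where 1493 and 2025 of 12420 genes were called. In Brd9 against Baf250A the offsets gave 2 higher and 2 lower, where 18.7% and 25.5% of all genes were called. The offsets also take out any change in expression that follows GC content, and that change and a trend of the library preparation cannot be told apart here.

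**Figure D4:**
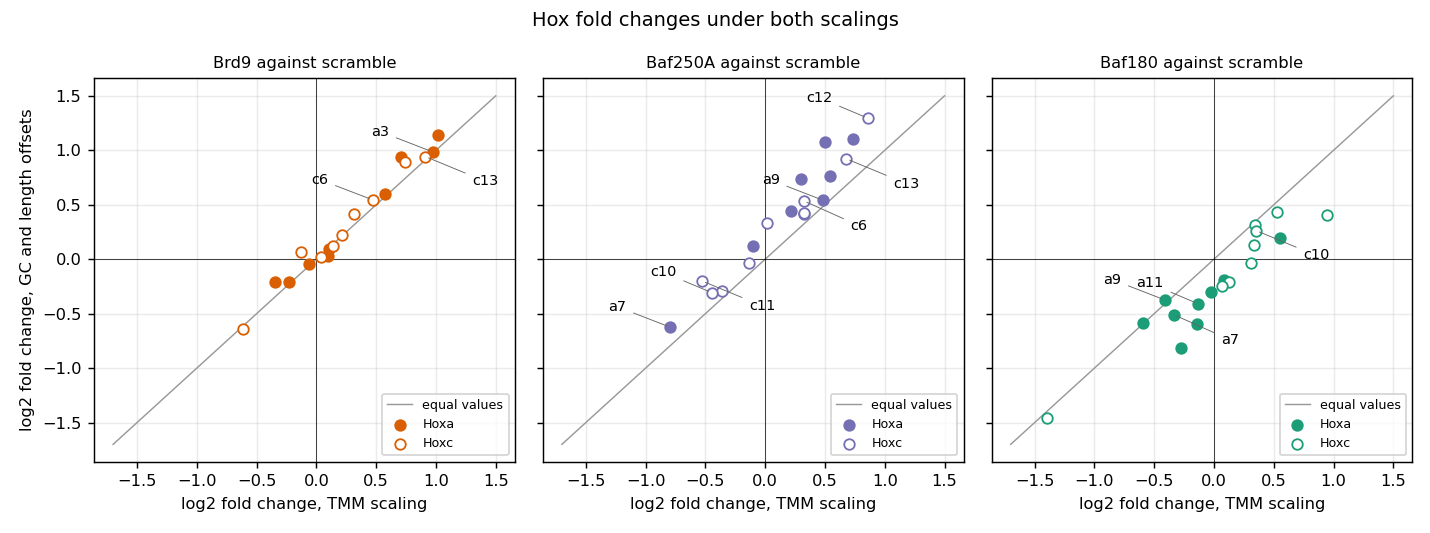
Log2 fold change against scramble of 18 tested HOX genes with TMM scaling (horizontal axis) and with GC and length offsets (vertical axis), filled points for Hoxa and open points for Hoxc, with names for genes called under either scaling. Points lie near the line of equal values in Brd9, mostly above it in Baf250A and mostly below it in Baf180; Hoxc13 is at 0.91 and 0.94 in Brd9.

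HOX proteins bind DNA with TALE homeodomain partners of the PBX, MEIS and PKNOX families, and all 9 listed cofactor genes passed the filter. Pknox2, a MEIS-related cofactor, was the 1 called in every knockdown, and it fell in each. It had 92 and 75 counts in Brd9, 38 and 29 in Baf250A, 68 and 51 in Baf180 and 162 and 158 in scramble libraries. The log2 fold changes were -1.12, -2.41 and -1.44, with adjusted p of 0.021, 0.00031 and 0.0034 in edgeR, and with the offsets -1.14, -2.23 and -1.61. Every knockdown library was under both scramble libraries.

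Meis3 and Pbx4 also fell in Baf250A knockdown, which made 3 of 9 cofactors lower and 0 higher there, where 14.0% and 15.5% of all genes were called lower and higher. With the offsets 5 were lower and 2 higher in Baf250A, where 17.4% and 17.7% of all genes were called. The higher ones were Pbx2 (0.54) and Pbx3 (0.45). Meis3 had 6.54 and 5.42 CPM in Baf250A and 14.4 and 13.8 CPM in scramble libraries (-1.24, adjusted p = 0.0052). Pbx4 had 7 and 9 counts in Baf250A and 22 and 26 in scramble libraries (-1.73, adjusted p = 0.018). The median log2 fold change of the 9 was 0.20 in Brd9, -0.37 in Baf250A and -0.19 in Baf180, where the medians of all genes were 0.04, -0.02 and -0.02. In Brd9 and Baf180 1 of 9 was called, Pknox2, where 3.57% and 17.0% of all genes were called lower. With the offsets 1 and 3 were lower, where 18.3% and 20.1% of all genes were.

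The lists that follow are read against the shares of all genes called. With TMM scaling these were 6.45% higher and 3.57% lower in Brd9, 15.5% and 14.0% in Baf250A, and 17.2% and 17.0% in Baf180. With the offsets they were 11.8% higher and 18.3% lower in Brd9, 17.7% and 17.4% in Baf250A, and 17.8% and 20.1% in Baf180. Of 10 tested activators, the MLL and trithorax genes, 1 was lower in Brd9 (Wdr5, a core MLL subunit, -0.50, adjusted p = 0.032). In Baf250A 2 were higher, Psip1 (0.94), which tethers MLL to chromatin, and Ash1l (0.93), a trithorax methyltransferase, and 1 was lower, Men1, which encodes the MLL partner menin (-0.68, adjusted p = 0.019). In Baf180 Kmt2b, which encodes an MLL methyltransferase, was higher (0.49), and Psip1 was lower (-1.14, adjusted p = 0.012). The median log2 fold change of the 10 was -0.09 in Brd9, -0.10 in Baf250A and -0.13 in Baf180. With the offsets 0 were higher and 3 lower in Brd9, 2 higher and 1 lower in Baf250A, and 0 higher and 3 lower in Baf180. Psip1 kept its calls there at 0.48 in Baf250A and -0.69 in Baf180.

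All 31 listed Polycomb genes and their counterparts were tested. In Brd9 1 was higher and 1 lower, in Baf250A 8 were higher and 2 lower, and in Baf180 5 were higher and 8 lower, with median log2 fold changes of 0.11, 0.06 and -0.21. With the offsets 3 were higher and 3 lower in Brd9, 6 and 2 in Baf250A, and 3 and 10 in Baf180. Suz12, a core subunit of Polycomb repressive complex PRC2, rose in Baf250A (1.64, adjusted p = 0.0039) and fell in Baf180 (-1.21, adjusted p = 0.014), and with the offsets these values were 0.90 and -0.55, both still called. Cbx7, a PRC1 subunit, rose in Baf180 (1.24, adjusted p = 0.0023), Kdm6b, the demethylase that removes the Polycomb mark, rose there (0.78, adjusted p = 0.0034), and Pcgf6, a subunit of a variant PRC1, fell (-1.45, adjusted p = 0.0033).

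Retinoic acid, which switches on 3′ HOX genes in embryos, was covered by 14 genes of which 10 were tested. In Brd9 0 were called in edgeR's test, where 2 had an unadjusted p below 0.05, in Baf250A 4 were higher and 1 lower, and in Baf180 5 were higher and 1 lower. The median log2 fold changes of the 10 were 0.09, 0.12 and 0.63 in the same order. With the offsets 2 were higher and 1 lower in Brd9, 5 and 1 in Baf250A, and 3 and 2 in Baf180, with medians of 0.16, 0.48 and 0.14. Crabp2, a retinoic acid carrier, had 37 and 32 counts in Baf250A, 283 and 269 in Baf180 and 159 and 132 in scramble libraries, and fell in Baf250A (-2.23, adjusted p = 0.00017) and rose in Baf180 (0.91, adjusted p = 0.0074). Crabp1, a related carrier, had 107 and 99 counts in Baf250A against 2 and 3 in scramble libraries and was called higher there (adjusted p = 6.52e-05 in edgeR). Cyp26b1, which breaks retinoic acid down, rose in Baf250A (1.61) and Baf180 (0.75), and the Baf180 call was lost with the offsets (0.34, adjusted p = 0.20). Rxra, another gene of this list, was called higher in Baf250A (0.49) and Baf180 (1.21). With the offsets Rxra was called higher in Brd9 (0.33), Baf250A (0.795) and Baf180 (0.77).

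Of the transcripts that lie among the HOX genes, Hotair and Hoxa11os passed the filter, out of 15 in the table. Hotair, the antisense non-coding gene of the Hoxc cluster, had 9 and 13 counts in Baf180 libraries against 25 and 24 in scramble libraries, and fell (-1.17, adjusted p = 0.038), a call that was lost with the offsets (-0.54, adjusted p = 0.22). Hoxa11os, antisense to Hoxa11, had 460.09 and 397.77 counts in Baf250A against 560.77 and 533.13 in scramble libraries and fell (-0.51, adjusted p = 0.041), which was -0.07 with the offsets (adjusted p = 0.62). The ratio of Hoxa11os counts to Hoxa11 counts, not set per length, was 1.21 and 1.32 in Brd9, 1.07 and 0.97 in Baf250A, 2.34 and 1.56 in Baf180 and 1.30 and 1.42 in scramble libraries. No label states whether counting used strand, and reads of this pair cannot be told apart with certainty.

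The 17 tested protein genes that flank the clusters or lie between them had calls in Brd9 for 1 (higher), in Baf250A for 3 higher and 2 lower, and in Baf180 for 2 higher and 7 lower. Their median log2 fold changes were 0.13, 0.01 and -0.39. With the offsets 1 was higher and 2 lower in Brd9, 0 and 5 in Baf250A, and 3 and 4 in Baf180. Their medians were then -0.15, -0.15 and -0.05, where the medians of all genes were -0.06, 0.005 and -0.03. The split turned in Baf250A, and also in Brd9, where over all genes more were higher with TMM scaling and more lower with the offsets. Calcoco1, which lies beyond the Hoxc cluster, had 1789 and 1872 counts in Brd9, 688 and 525 in Baf250A, 2350 and 1902 in Baf180 and 1022 and 940 in scramble libraries. It rose in Brd9 (0.73, adjusted p = 0.033) and Baf180 (1.10, adjusted p = 0.0025) and fell in Baf250A (-0.86, adjusted p = 0.0085), with the same directions and calls under the offsets. Smug1, a uracil DNA glycosylase gene on the other side of that cluster, fell in Baf250A (-1.09, adjusted p = 0.0050).

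Other regulators of limb position gave few values. Of 11 genes, 4 were tested, and Pitx1, Hand2 and Shh were at 0 in every library, while the limb factors Tbx5 and Tbx4 had at most 5 counts. Tbx18, a T-box gene, had 591 and 880 counts in Baf250A against 235 and 227 in scramble libraries and rose (1.51, adjusted p = 0.0037). Gli3, a transducer of hedgehog signals in the limb bud, had 1004 and 1275 counts in Baf250A against 677 and 651 in scramble libraries and rose (0.62, adjusted p = 0.039). Neither was called in Brd9 or Baf180. The median log2 fold changes of the 4 were 0.59 in Brd9, 0.56 in Baf250A and -0.09 in Baf180. With the offsets 1 was higher in Brd9, 4 were higher in Baf250A, and 1 was higher and 1 lower in Baf180.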

How the data were processed

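RNA was sequenced from 8 libraries of C2C12 cells, 2 for each of 4 shRNAs. The authors deposited 1 table of estimated counts without normalisation and, per the file headers, another column with gene length in bases. Tools listed in the submitters' processing notes are RSEM, Bowtie2, HISAT2, StringTie, Cufflinks and DESeq2, with build mm10 and no roles. Neither versions nor the strand setting are stated there.

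Gene IDs were matched to RefSeq names and coordinates (GRCm38.p6). Estimated counts were rounded, filterByExpr kept 12420 genes, and TMM factors scaled the library sizes used for CPM. A fit of all 8 libraries with edgeR 4.0.16 (R 4.3.3, quasi-likelihood test, limma 3.58.1) gave 6 two-sided comparisons, with Benjamini-Hochberg adjustment over all tested genes and calls at an adjusted p below 0.05. SE is the absolute log2 fold change over the square root of F. CPM per kilobase divides by the deposited gene length. Offsets came from per-library loess curves (span 0.3) on GC content of GENCODE M21 transcripts, found for 98.95% of tested genes, and on log2 length. The steps were tested on simulated data. Alternatives were RLE scaling, no filter, DESeq2 1.42.0, the libraries of a comparison alone, a replicate block, the offsets and each library left out.

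Members are named one by one, except that the values of 1 gene are not reported here, though it stays in the counts and sums. Named too are, of each gene list, up to 4 genes with the lowest p against scramble. Kmt2b, Pbx2, Des and Myf5 fall outside this rule and were chosen after their values were seen. The members and lists were chosen with earlier results of these data known. Counting limits of 3 counts for a value of 0 cover counting error only, as no molecular identifiers are stated.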

Additional observations from a re-analysis of the deposited data

How the results depend on the processing

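Counts of called HOX genes were compared over the other settings. In Brd9 against scramble the count of 1 became 4 with no filter (Hoxa3, Hoxa10 and Hoxb4 added), 3 in a fit of its own 4 libraries, 3 with GC and length offsets and 3 with offsets and replicate block. Over all genes, 801 were called higher and 443 lower of 12420 with TMM scaling. These became 1552 and 1036 of 18092 with no filter and 1485 and 1075 of 12420 with its own libraries. With offsets they were 1461 and 2273, and with offsets and block 1288 and 1922. Calls over all genes are given below in the same way, of 12420 unless stated. In Baf250A against scramble the count of 4 became 2 with the replicate block, where Hoxa7 (lower) and Hoxc13 (higher) were called and the lower Hoxc10 and Hoxc11 were not (adjusted p = 0.060 and 0.063), and 5 in a fit of its own 4 libraries. All genes gave 1926 and 1743 with TMM scaling, 1624 and 1396 with the block, and 2579 and 2144 with its own libraries. In Baf180 against scramble the count of 0 became 1 with no filter (Hoxc8, lower), 4 with offsets and 1 with offsets and replicate block. Calls over all genes were 2142 and 2111 with TMM scaling and 2422 and 2714 of 18092 with no filter. They were 2206 and 2492 with offsets and 2013 and 2246 with offsets and block. In Baf250A against Baf180 the count of 5 became 10 with offsets and 10 with offsets and replicate block. Across all genes there were 3824 and 3942 with TMM scaling, 3540 and 3256 with offsets, and 3363 and 3062 with offsets and block. In Brd9 against Baf180 the count of 3 became 1 with DESeq2, 7 with offsets, and 3 with offsets and replicate block (Hoxa3, Hoxa10 and Hoxc13). It became 2 with RLE scaling, the replicate block or its own 4 libraries, each time without Hoxa9. With no filter it stayed at 3, with Hoxb4 (2.46) called higher and Hoxa9 not called. All-gene calls were 3270 and 2888 with TMM scaling, 3062 and 2992 with DESeq2 and 1738 and 2346 with offsets. They were 1493 and 2025 with offsets and block, 3148 and 2997 with RLE, and 2947 and 2316 with the block. With its own libraries they were 3075 and 2330, and with no filter 3519 and 2989 of 18092. In Brd9 against Baf250A the count of 3 became 2 with no filter, DESeq2, the replicate block or its own 4 libraries. Here all genes gave 1862 and 1246 with TMM scaling, 2063 and 1845 of 18092 with no filter and 1654 and 1650 with DESeq2. They gave 1504 and 896 with the block and 1486 and 1040 with its own libraries. With 1 library left out, the called members kept their direction and many calls were lost, as given above. Most of these fits also called fewer of all genes, so a lost call is not read as a trait of the members. The lone library left in a group was assumed to vary like the other groups. In Baf250A against Baf180 the log2 fold change reversed with offsets for Hoxc6 (0.41, 0.41 with the replicate block), Hoxc11 (0.0076, 0.0072) and Hoxc12 (0.89, 0.90). Of 1032 uncalled values, 80 changed sign. Beyond offsets built on GC content and length, the cause of these moves was not tested.

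Replicate numbers are shared between groups but nothing says that they mark a day or batch. Deviations of same-numbered libraries correlated at -0.05, 0.12, 0.02, -0.47, -0.48 and 0.46 over the 6 pairs of groups, so the block is given as an alternative only.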
